A study of Homo sapiens with 36 samples.

Results

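HEL cells that had received TAL1 siPool 1 were compared with HEL cells that had received TAL1 siPool 2, and the comparison was chosen by those labels alone. It rests on 6 of the 36 libraries of the series, 3 for each pool, labelled bio rep 1 to 3. HEL is a human erythroleukemia line. siPool 1, siPool 2 and the non-targeting siRNA pool were each delivered by electroporation, and 3 non-targeting libraries show which of the pools moved a gene. No genotype, dose or time after electroporation is labelled for the HEL cells. The other 27 libraries are of K562 cells, were deposited in other tables and were not used here. Polyadenylated RNA was sequenced, and values are CPM, the counts of a gene scaled to the total of its library.

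TAL1 is a basic helix-loop-helix transcription factor of erythroid, megakaryocytic and mast cells and of blood stem cells. It binds DNA with an E protein partner, and LMO2 and LDB1 tie it to GATA factors in 1 complex. An siRNA guides the RNA interference machinery to transcripts that it matches, and its short seed can also lower transcripts with partial matches. Both pools name the same target, so the comparison asks what differs between the pools at a like loss of TAL1. The siRNA sequences of the pools were not analysed here.

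The libraries held 21.1 M to 22.8 M counts for siPool 1, 15.9 M to 25.4 M for siPool 2 and 23.4 M to 27 M for the non-targeting pool. Within each group, bio rep 1 stood apart: counts of replicates differed by 20.5 to 31.0 times the sampling noise (chi-square per degree of freedom) in pairs with bio rep 1, and by 4.39 to 5.90 times between bio reps 2 and 3. No 2 libraries were duplicates. HSPA8, a heat shock chaperone, shows the split: it stood at 3351 CPM for siPool 1, 2684 CPM for siPool 2 and 3654 CPM for the non-targeting pool in bio rep 1, against 1259 to 1701 CPM in the other 6 libraries. The bio rep number was set beforehand as a block in the fit, and results without the block stand beside those it changes. Nothing in the labels says that bio reps came from separate cultures, so p-values measure the spread between these samples, which may be technical.

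TAL1, the target, was lowered by both pools to levels that did not differ detectably. It stood at 166, 191 and 182 CPM with siPool 1 (bio reps 1, 2 and 3), at 180, 191 and 195 CPM with siPool 2, and at 439, 469 and 491 CPM with the non-targeting pool. The libraries of the pools overlapped each other, and all 6 lay far below the non-targeting libraries. siPool 1 left 38.4% and siPool 2 left 40.4% of the non-targeting level (log2 differences -1.38 ± 0.06 and -1.31 ± 0.06 (SE), edgeR quasi-likelihood test with Benjamini-Hochberg adjustment, adjusted p = 1.01e-16 and 8.44e-16). The difference between the pools was -0.07 ± 0.06 on the log2 scale, with a 95% interval of -0.19 to 0.04 (adjusted p = 0.445). LMO2, the adaptor of the complex, stood at 180 ± 8.58 CPM with siPool 1, 200 ± 8.24 CPM with siPool 2 and 189 ± 13.7 CPM with the non-targeting pool (SD, n = 3 each), and its pool difference did not pass the test (-0.15 ± 0.06, 95% interval -0.27 to -0.03, edgeR adjusted p = 0.0745).

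**Figure D1:**
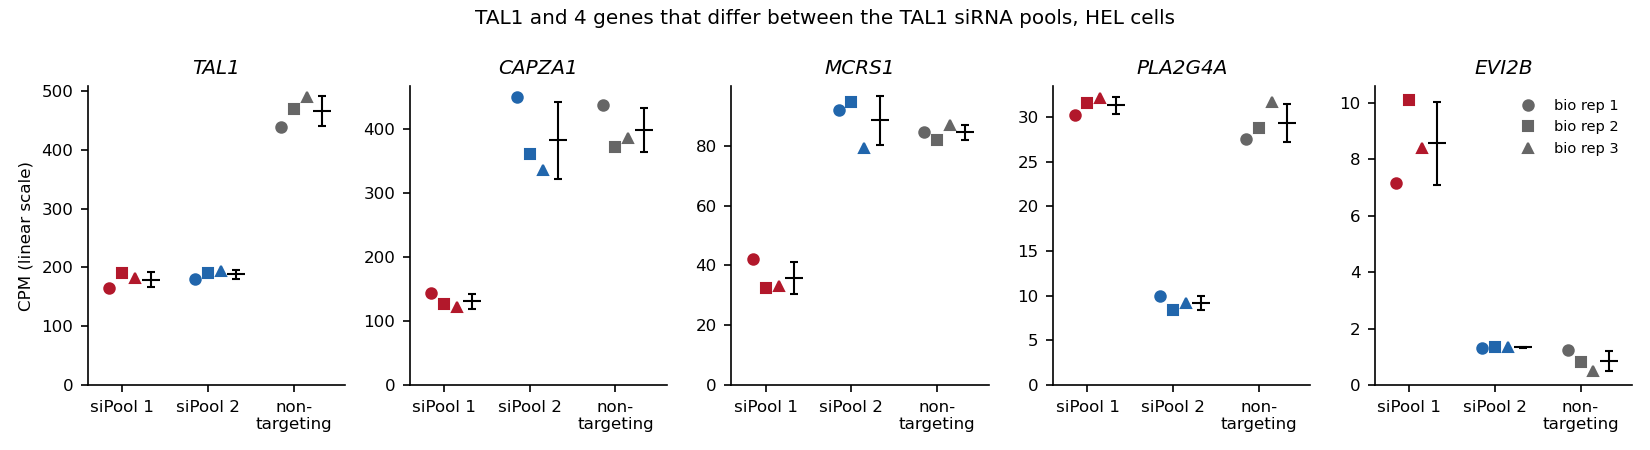
CPM on a linear scale (y) in every HEL library of siPool 1, siPool 2 and the non-targeting pool for TAL1 and 4 genes that differ between the pools. Symbols mark the bio reps, and the bar beside them gives the mean and SD of 3 libraries; TAL1 is at 179 CPM with siPool 1 and 188 CPM with siPool 2, whereas CAPZA1 is at 131 and 382 CPM.

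The pools differed at many other genes. Of 16688 genes tested, 2431 (14.6%) differed between siPool 1 and siPool 2 at an adjusted p under 0.05, of which 1248 (7.48%) were higher and 1183 (7.09%) lower with siPool 1. Most differences were small: 168 genes (1.01%) were called and at least 2-fold apart, 89 higher (0.533%) and 79 lower (0.473%), and the 95% interval lay within 2-fold for 12301 genes (73.7%). The share called was larger among well measured genes, at 22.2%, 26% and 28% of those with a mean of at least 10, 50 and 100 CPM. The median log2 difference over all genes was -0.01. Against the non-targeting pool, siPool 1 moved 2888 genes (17.3%), 1417 higher (8.49%) and 1471 lower (8.81%). siPool 2 moved 1694 (10.2%), 829 higher (4.97%) and 865 lower (5.18%), and both counts share the same 3 control libraries.

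The count of pool differences leaned on the block and on bio reps 2 and 3. Without the block, 461 genes (2.76%) were called between the pools, 281 higher (1.68%) and 180 lower (1.08%) with siPool 1, and all 461 were among the 2431. Without the block and without bio rep 1, an alternative chosen after seeing the data, 2591 were called. Leaving out a single library with the block kept gave 1307 calls without siPool 2 bio rep 2, 1348 without siPool 1 bio rep 2, 1465 without siPool 2 bio rep 3 and 1568 without siPool 1 bio rep 3. Leaving out a whole bio rep gave 2451 calls without bio rep 1, 970 without bio rep 2 and 1402 without bio rep 3.

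**Figure D2:**
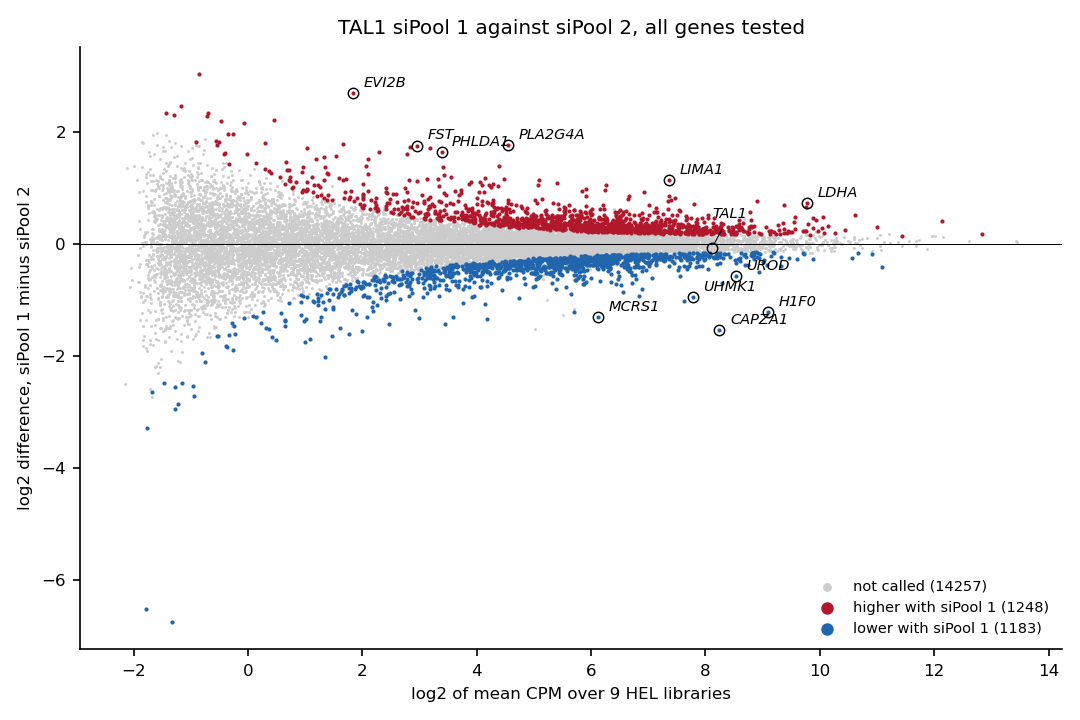
The log2 difference of siPool 1 minus siPool 2 (y) against the log2 of the mean CPM over the 9 HEL libraries (x) for 16688 genes. Red points are the 1248 genes called higher and blue points the 1183 called lower with siPool 1; named genes are circled, and TAL1 lies at -0.07 among the genes not called.

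CAPZA1 fell with siPool 1 alone and had the smallest adjusted p of the genes named here. It encodes an alpha subunit of the capping protein that closes the fast-growing end of actin filaments. It stood at 144, 126 and 122 CPM with siPool 1, at 449.9, 361 and 335 CPM with siPool 2 and at 437, 371 and 385 CPM with the non-targeting pool. All 3 siPool 1 libraries lay below all others, while siPool 2 and the non-targeting pool overlapped. The libraries of siPool 1 and siPool 2 did not overlap each other for 20.7% of all genes tested. CAPZA1 was 2.91-fold lower with siPool 1 than with siPool 2 (-1.54 ± 0.06, edgeR adjusted p = 4.37e-17, and 4.3e-05 without the block). Relative to the non-targeting pool it fell to 32.9% with siPool 1, and the difference with siPool 2 was -0.06 ± 0.06 (95% interval -0.18 to 0.05).

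MCRS1 moved in the same way. It encodes a subunit of the NSL histone acetyltransferase and INO80 remodelling complexes. It stood at 42, 32.6 and 32.95 CPM with siPool 1, at 91.9, 94.5 and 79.3 CPM with siPool 2 and at 84.5, 81.8 and 87.1 CPM with the non-targeting pool. The siPool 1 libraries again lay below all others. The pool difference was -1.31 ± 0.08 (edgeR adjusted p = 6.27e-12), with 42.3% of the non-targeting level left by siPool 1 and a siPool 2 difference of 0.07 ± 0.08 (95% interval -0.10 to 0.23). Of the 24 tested members of the NSL and INO80 complexes, 0 were called higher and 2 lower (8.33%, median -0.07, against 14.6% of all genes). The lower calls numbered 1 without the block (beside 1.08% of all genes), and also 1 without bio rep 2 of either pool. MCRS1 itself was among the lower calls in each of these settings. The other, RUVBL2 (-0.21), lost its call in 7 of 19 alternatives.

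PLA2G4A was the reverse case, a gene that siPool 2 lowered. It encodes cytosolic phospholipase A2, which frees arachidonic acid from membrane lipids. It stood at 30.3, 31.6 and 32.1 CPM with siPool 1, at 10.02, 8.39 and 9.19 CPM with siPool 2 and at 27.5, 28.7 and 31.7 CPM with the non-targeting pool. Here siPool 2 lay apart, and the libraries of siPool 1 and the non-targeting pool overlapped. PLA2G4A was 3.39-fold higher with siPool 1 than with siPool 2 (1.76 ± 0.11, edgeR adjusted p = 4.37e-12), and siPool 2 left 31.6% of the non-targeting level (-1.66 ± 0.11, adjusted p = 9.99e-12).

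EVI2B, a membrane protein of myeloid cells whose gene lies in an intron of NF1, was a gain with siPool 1. It stood at 7.17, 10.1 and 8.40 CPM with siPool 1, at 1.32, 1.33 and 1.35 CPM with siPool 2 and at 1.24, 0.811 and 0.514 CPM with the non-targeting pool. All 3 siPool 1 libraries lay above all others. The pool difference was 2.68 ± 0.26 (6.43-fold, edgeR adjusted p = 2.1e-08), and siPool 1 was 9.87-fold above the non-targeting pool (3.30 ± 0.27). With siPool 2 and the non-targeting pool EVI2B was near the floor of detection, so the size of both folds is uncertain. The siPool 2 libraries also lay above the non-targeting ones, by a small margin. NF1 itself stood at 145 ± 9.64 CPM with siPool 1 and 151 ± 4.98 CPM with siPool 2 (SD, n = 3 each; -0.06 ± 0.06, 95% interval -0.18 to 0.06). EVI2A, a neighbour of EVI2B in the same intron, was near the floor of detection at up to 1.07 CPM in any library.

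The 4 genes kept their call in all 19 alternatives tried. The same held for most of the 16 genes with the largest differences at a mean of at least 5 CPM, of which 14 were also called without the block. Among the 8 highest with siPool 1, PLA2G4A alone owed its difference to a fall with siPool 2, and the other 7 stood above the non-targeting pool with siPool 1. FST, the secreted activin antagonist follistatin, stood at 17.2, 12.8 and 13.97 CPM with siPool 1, at 6.23, 4.04 and 2.76 CPM with siPool 2 and at 4.92, 2.86 and 5.19 CPM with the non-targeting pool. Its siPool 1 libraries lay above all others, and the pool difference was 1.75 ± 0.19 (edgeR adjusted p = 1.77e-07). PHLDA1, a pleckstrin-homology-like protein induced by growth signals, stood at 17.0, 23.0 and 22.0 CPM with siPool 1, at 7.31, 6.04 and 6.62 CPM with siPool 2 and at 5.03, 4.01 and 2.96 CPM with the non-targeting pool. PHLDA1 rose with both pools, by 2.37 ± 0.17 with siPool 1 and by 0.73 ± 0.18 with siPool 2 (the siPool 2 rise not called without the block, edgeR adjusted p = 0.135), and the difference of 1.63 ± 0.16 between them passed the test (adjusted p = 4.47e-08).

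The rest of the 8 were PMP22, a myelin membrane protein (1.72 ± 0.17), MYL9, a regulatory light chain of myosin (1.60 ± 0.18), and 3 genes with near copies. HSPA7 (1.71 ± 0.15) is a pseudogene close in sequence to HSPA6, GVINP1 (1.38 ± 0.11) is a pseudogene of a large interferon-induced GTPase, and FCGR2C (1.37 ± 0.15) is nearly identical to FCGR2B in part of its length. Reads can be split between such copies, so the values of all 3 are uncertain. HSPA6 was at 3.31 CPM at most. Its pool difference of 0.89 ± 0.32 had the same sign as that of HSPA7 but did not pass the test (edgeR adjusted p = 0.0623). The copies were not tested against each other. FCGR2B rose beside FCGR2C (1.16 ± 0.20, adjusted p = 0.000467), and so did FCGR2A, the activating Fc receptor (0.51 ± 0.07, adjusted p = 4.97e-06).

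Of the 8 lowest with siPool 1, most stood at the non-targeting level with siPool 2. SUMF1, the enzyme that activates sulfatases, stood at 4.08, 4.50 and 3.92 CPM with siPool 1, at 10.9, 11 and 9.62 CPM with siPool 2 and at 8.87, 9.52 and 9.39 CPM with the non-targeting pool (pool difference -1.33 ± 0.16, edgeR adjusted p = 7.17e-07). CAMK2N1, an inhibitor of the kinase CaMKII (-1.43 ± 0.19), and RP11-421F16.3, a gene on chromosome 12 (-1.44 ± 0.16), had the same pattern. H1FX, a linker histone, stood at 20.2, 35.5 and 27.6 CPM with siPool 1, at 37.8, 76.0 and 87.2 CPM with siPool 2 and at 37.0, 79.0 and 69.8 CPM with the non-targeting pool (-1.23 ± 0.10). H1F0, the linker histone of resting and differentiated cells, was chosen after its values were seen and stood at 157, 362 and 377 CPM with siPool 1, at 351, 815 and 949 CPM with siPool 2 and at 300.2, 823 and 777 CPM with the non-targeting pool (-1.22 ± 0.06). In both linker histones bio rep 1 was lowest in every group, and neither was called without the block (adjusted p = 0.16 for H1FX and 0.38 for H1F0).

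PAPPA and SYTL1 differed from that pattern. PAPPA, a protease that cleaves an IGF-binding protein, stood at 10.1, 10.9 and 10.4 CPM with siPool 1, at 19.5, 29.3 and 32.95 CPM with siPool 2 and at 14.01, 18.7 and 17.3 CPM with the non-targeting pool. The 3 groups did not overlap: siPool 1 lowered PAPPA by 0.66 ± 0.13 below and siPool 2 raised it by 0.69 ± 0.12 above the non-targeting pool on the log2 scale (edgeR adjusted p = 0.000364 and 0.00022). Without the block neither difference from the non-targeting pool was called (adjusted p = 0.0585 and 0.0896), while that between the pools was (0.00252). SYTL1, a Rab27 effector of vesicle trafficking, stood at 4.03, 9.18 and 11.2 CPM with siPool 1, at 11.2, 20.6 and 27.3 CPM with siPool 2 and at 2.55, 13.2 and 8.53 CPM with the non-targeting pool. Against the non-targeting pool it was at 0.08 ± 0.21 with siPool 1 and 1.39 ± 0.20 with siPool 2. The pools overlapped, and SYTL1 was not called between the pools without the block (adjusted p = 0.38).

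**Figure D3:**
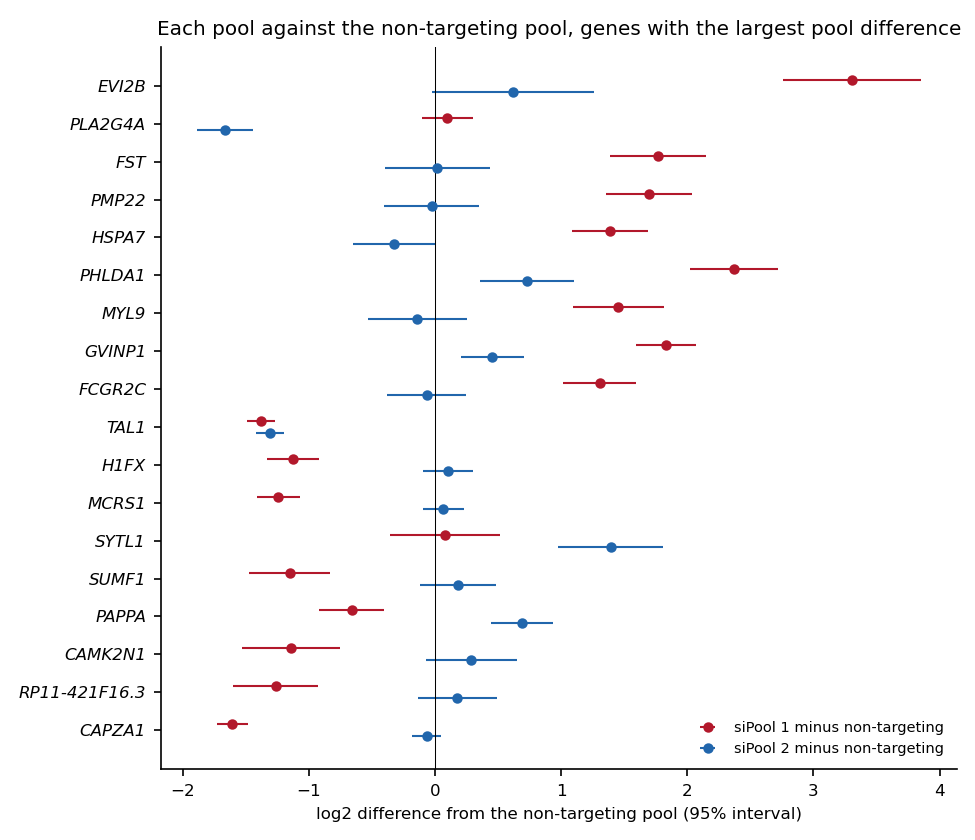
The log2 difference from the non-targeting pool (x) with its 95% interval for siPool 1 (red) and siPool 2 (blue), for TAL1, EVI2B and the 16 genes with the largest pool differences (y), ordered by the pool difference. TAL1 is lowered alike, at -1.38 and -1.31, while CAPZA1 is at -1.61 with siPool 1 and -0.06 with siPool 2 and PLA2G4A at 0.10 and -1.66.

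Over all 2431 called genes, the non-targeting libraries lay nearer to siPool 2 more often than to siPool 1. Their mean was nearer to siPool 2 for 1527 genes (62.8%) and nearer to siPool 1 for 904 (37.2%), a count with no test. Among those lower with siPool 1 it was nearer to siPool 2 for 780 of 1183 (65.9%), and among those higher for 747 of 1248 (59.9%). Of the 79 genes at least 2-fold lower with siPool 1, 57 had the non-targeting mean nearer to siPool 2. Of the 2431, 38 were called against the non-targeting pool in opposite directions by the pools, 14 of them lower and 24 higher with siPool 1, and 0 of the 38 kept both calls without the block.

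Genes lower with siPool 2 than with both other pools were chosen next, after their values were seen. FAM136A, a mitochondrial protein, stood at 109, 75.8 and 76.0 CPM with siPool 1, at 48.0, 39.8 and 36.8 CPM with siPool 2 and at 133, 80.9 and 86.9 CPM with the non-targeting pool (-0.20 ± 0.07 for siPool 1 and -1.25 ± 0.08 for siPool 2, each minus the non-targeting pool). ISCA1, an iron-sulfur cluster assembly protein, and NME4, a mitochondrial nucleoside diphosphate kinase, had differences of 0.02 and -0.07 with siPool 1 (edgeR adjusted p = 0.905 and 0.661) and fell with siPool 2 by 1.06 and 1.02 on the log2 scale. LIMA1, which crosslinks actin filaments, rose with siPool 1 (0.33 ± 0.07) and fell with siPool 2 (-0.80 ± 0.07). PLVAP, a protein of endothelial fenestrae, did the same (0.35 ± 0.11 with siPool 1 and -0.81 ± 0.12 with siPool 2). All 5 were called between the pools with and without the block. Without it, the falls with siPool 2 kept their call except that of LIMA1 (edgeR adjusted p = 0.0594), and the rises of LIMA1 and PLVAP with siPool 1 lost theirs (0.348 and 0.167). LDHA, a lactate dehydrogenase subunit and hypoxia target named by the rule on lists, stood at 1151, 1019 and 781 CPM with siPool 1, at 747, 575 and 474 CPM with siPool 2 and at 1123, 971 and 1023 CPM with the non-targeting pool (0.72 ± 0.08 between pools, adjusted p = 4.42e-05).

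The actin genes around CAPZA1 were then examined, as the list of capping protein, Arp2/3 complex and partner genes. Of 41 tested, 14 were called higher and 4 lower with siPool 1 (43.9% called, against 14.6% of all genes). The median was 0.12 against -0.01. CAPZA1 itself is counted among the lower calls, with and without the block. ACTB, cytoplasmic beta-actin, stood at 5390, 5284 and 4677 CPM with siPool 1, at 4073, 3924 and 3569 CPM with siPool 2 and at 4330, 4426 and 4790 CPM with the non-targeting pool (0.41 ± 0.06, edgeR adjusted p = 7.25e-06). The Arp2/3 subunits ARPC5 (0.50 ± 0.06) and ACTR3 (0.36 ± 0.06) rose as well. CAPZA2, the other widely expressed alpha subunit of capping protein, was 0.30 ± 0.07 higher with siPool 1 than with siPool 2 but 0.06 ± 0.07 from the non-targeting pool, and the call was lost without the block, without siPool 1 bio rep 2 and without bio rep 2 (adjusted p of up to 0.156 with a library or bio rep left out). CAPZB, the beta subunit, was at 429 ± 46.4 CPM with siPool 1 and 394 ± 17.1 CPM with siPool 2 (SD, n = 3 each; 0.12 ± 0.06, adjusted p = 0.19). Without the block 4 of the 41 were called higher and 2 lower, beside 1.68% and 1.08% of all genes. With 1 library left out, the higher calls numbered 5 without siPool 1 bio rep 2 or siPool 2 bio rep 3 and 7 without siPool 2 bio rep 2.

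Of 32 S phase genes, 17 were called lower and 1 higher with siPool 1, and 14 did not pass the test (56.2% called, against 14.6% of all genes; median -0.21), and the 95% interval lay within 2-fold for all 32. CDT1, which loads the replicative helicase, stood at 76.8, 79.5 and 73.8 CPM with siPool 1, at 101, 132 and 146 CPM with siPool 2 and at 90.2, 126 and 126 CPM with the non-targeting pool (-0.70 ± 0.08, edgeR adjusted p = 1.35e-06). MCM5 and MCM2, subunits of that helicase, fell too (-0.46 ± 0.07 and -0.39 ± 0.06). Against the non-targeting pool, 27 of the 32 were called lower with siPool 1 and 14 with siPool 2, and 0 were called higher by either with edgeR. Without the block 3 of the 32 were called lower between the pools, beside 1.08% of all genes. With 1 library left out, the 17 lower calls became 7 without siPool 1 bio rep 3, 8 without siPool 2 bio rep 2, 10 without siPool 2 bio rep 3 and 11 without siPool 1 bio rep 2. Lower calls over all genes fell in these settings too, from 1183 to between 606 and 708. Of 30 G2 and M phase genes, 8 were called lower and 3 higher (36.7%; median -0.08). They included BUB1, a kinase of the spindle checkpoint (-0.51 ± 0.06, adjusted p = 2.92e-07), the kinesin KIF2C (-0.40 ± 0.06) and, higher, the spindle kinesin KIF11 (0.39 ± 0.07). Without the block 2 were called lower and 0 higher by edgeR (beside 1.08% and 1.68% of all genes), and KIF11 lost its call (adjusted p = 0.0857). With 1 library left out, 4 were lower without bio rep 3 of either pool and 5 without siPool 1 bio rep 2, and 5 were higher without siPool 1 bio rep 1 and 1 without bio rep 2 or bio rep 3 of either pool.

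**Figure D4:**
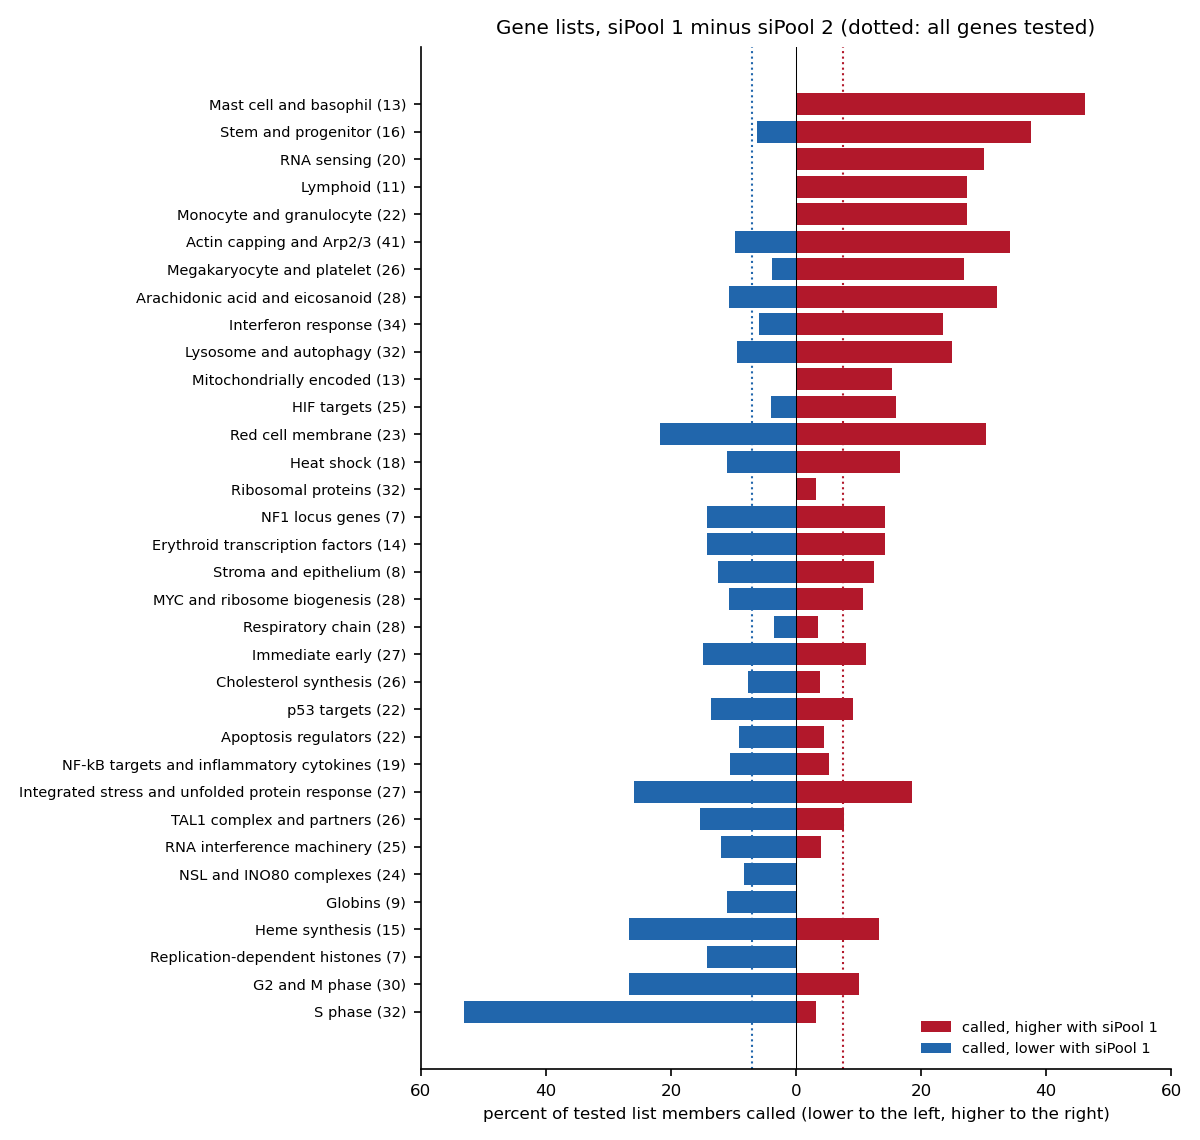
Percent of the tested members of each gene list (y, members tested in brackets) called higher with siPool 1 (red, to the right) or lower (blue, to the left) against siPool 2 (x). Dotted lines mark all genes tested, 7.48% higher and 7.09% lower; the S phase list has 17 of 32 members called lower and 1 higher.

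The erythroid program, which TAL1 serves, was set side by side. Over all genes tested, 14.6% were called between the pools, or 2.76% without the block. Of 9 globin genes tested, 1 was called between the pools (11.1%), namely HBG2, fetal gamma globin, at 1034, 1207 and 883 CPM with siPool 1, at 1219, 1336 and 1168 CPM with siPool 2 and at 2116, 2274 and 2412 CPM with the non-targeting pool. The pools overlapped, and the pool difference of -0.26 ± 0.07 (edgeR adjusted p = 0.0153) lost its call in several alternatives (adjusted p of up to 0.154 with a library or bio rep left out). HBG2 and its near copy HBG1 can share reads. Of 15 heme synthesis genes, 4 were called lower and 2 higher (40%; median -0.14), or 1 and 0 without the block, and with 1 library left out 2 to 6 were lower, fewest without siPool 1 bio rep 3. The 2 higher calls fell to 0 without bio rep 2 of either pool and to 1 without siPool 2 bio rep 3. UROD, the uroporphyrinogen decarboxylase of that pathway, stood at 282, 269 and 236 CPM with siPool 1, at 372, 401 and 400.3 CPM with siPool 2 and at 458, 461 and 447 CPM with the non-targeting pool. The 3 groups did not overlap, and UROD fell by 0.80 ± 0.06 with siPool 1 and by 0.22 ± 0.06 with siPool 2 (not called without the block, edgeR adjusted p = 0.286), with a pool difference of -0.58 ± 0.06 (adjusted p = 7.54e-08).

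Red cell membrane genes went both ways, beside 7.48% higher and 7.09% lower of all genes (1.68% and 1.08% without the block). Of 23 tested, 7 were called higher and 5 lower with siPool 1 than with siPool 2 (52.2%; median 0.05, a sign that turned in some settings), and 13 were called lower against the non-targeting pool by each pool. EPB42, protein 4.2 of the red cell skeleton, stood at 90.5, 97.5 and 90.0 CPM with siPool 1, at 136, 145 and 146 CPM with siPool 2 and at 151, 184 and 164 CPM with the non-targeting pool (-0.62 ± 0.06, edgeR adjusted p = 6.04e-08). SLC2A1, the glucose transporter of red cells, was on the other side, at 209 ± 15 CPM with siPool 1, 169 ± 9.01 CPM with siPool 2 and 230 ± 17.4 CPM with the non-targeting pool (SD, n = 3 each; 0.30 ± 0.06, not called without the block). HEMGN, an erythroid nuclear protein, was lower with siPool 1 than with siPool 2 (-0.73 ± 0.09, adjusted p = 6.39e-07) and fell with both pools, by 1.40 ± 0.08 and by 0.67 ± 0.08. Without the block, 0 of the 23 red cell membrane genes were called higher and 1 lower between the pools, with edgeR. With 1 library left out, 4 to 7 were higher and 2 to 5 lower, fewest without siPool 1 bio rep 2.

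Between the pools, 14.6% of all genes were called (2.76% without the block), and 22.2% of those with a mean of at least 10 CPM. Among 26 genes of the TAL1 complex and its partners, 2 were called higher and 4 lower (23.1%, median 0.01), near the latter share. Without the block 0 were higher and 2 lower by edgeR, and the higher calls fell to 0 without siPool 2 bio rep 3 and to 1 without bio rep 2 of either pool. ZFPM1, the GATA1 cofactor FOG1, stood at 32.2, 26.5 and 26.1 CPM with siPool 1, at 44.1, 46.6 and 60.3 CPM with siPool 2 and at 39.0, 51.2 and 51.9 CPM with the non-targeting pool (-0.82 ± 0.12, edgeR adjusted p = 6.67e-05). LYL1, the helix-loop-helix factor closest to TAL1, was also lower (-0.41 ± 0.08, adjusted p = 0.000655). Of 14 erythroid transcription factors, 2 were called higher and 2 lower (28.6%), or 1 and 0 without the block, and 1 was higher without bio rep 2 or bio rep 3 of either pool. IKZF1, the zinc finger factor Ikaros, stood at 138, 142 and 148 CPM with siPool 1, at 101, 98.5 and 92.8 CPM with siPool 2 and at 112, 116 and 113 CPM with the non-targeting pool (0.55 ± 0.06, adjusted p = 4.35e-07). NFE2, an erythroid and megakaryocytic factor, was lower with siPool 1 (-0.47 ± 0.08, adjusted p = 0.000199, and 0.075 without the block).

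Several lists of other blood cell types had more members called higher than lower with siPool 1, and in bulk RNA fewer cells of a type and less RNA per cell cannot be told apart. Over all genes, 7.48% were called higher and 7.09% lower, or 1.68% and 1.08% without the block. Of 38 monocyte and granulocyte genes, 22 were tested, and 6 were called higher and 0 lower by edgeR (27.3%; median 0.18; 5 higher and 0 lower without the block). Their summed level was 578 to 689 CPM with siPool 1, 504 to 582 CPM with siPool 2 and 495 to 619 CPM with the non-targeting pool, and ELANE, CSF2RA, FCN1, LILRB1 and CLEC7A were at 0 in every library. ITGAM, an integrin of myeloid cells, stood at 20.2, 22.6 and 16.4 CPM with siPool 1, at 7.66, 9.67 and 8.64 CPM with siPool 2 and at 6.39, 5.98 and 7.55 CPM with the non-targeting pool (1.19 ± 0.14, edgeR adjusted p = 9.65e-07). FCER1G, the signalling chain of Fc receptors (0.73 ± 0.09), and LYZ, lysozyme (0.55 ± 0.09), were higher as well, and so was C3AR1, a complement receptor chosen after its values were seen (1.18 ± 0.11). EVI2B is a member of this list, and the part of the list in its difference was not tested.

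Beside 7.48% higher and 7.09% lower of all genes (1.68% and 1.08% without the block), mast cell and basophil genes followed. HEL cells express many of them at high levels. Of 13 tested, 6 were called higher and 0 lower (46.2%; median 0.28; 4 higher and 0 lower without the block), CMA1 was at 0 in every library, and the summed level was 3312 to 3492 CPM with siPool 1, 2673 to 2904 CPM with siPool 2 and 2581 to 2874 CPM with the non-targeting pool. Against the non-targeting pool, siPool 1 had 6 of the 13 called higher and 0 lower (8.49% and 8.81% of all genes). For siPool 2 it was 6 higher and 2 lower (4.97% and 5.18% of all genes), so members rose with both pools. CPA3, the mast cell carboxypeptidase, stood at 42.3, 62.5 and 61.9 CPM with siPool 1, at 22.8, 32.7 and 24.9 CPM with siPool 2 and at 13.0, 21.5 and 19.3 CPM with the non-targeting pool. CPA3 rose with both pools, by 1.64 ± 0.10 with siPool 1 and by 0.60 ± 0.10 with siPool 2 (not called without the block, edgeR adjusted p = 0.285), and its pool difference was 1.04 ± 0.10 (edgeR adjusted p = 9.27e-09). FCER1A, the alpha chain of the IgE receptor, stood apart through siPool 2 instead, at 855 ± 21.3 CPM with siPool 1, 616 ± 34.6 CPM with siPool 2 and 811 ± 41.5 CPM with the non-targeting pool (SD, n = 3 each; 0.47 ± 0.05). Of 26 megakaryocyte and platelet genes, 7 were called higher and 1 lower (30.8%; median 0.15), or 3 and 0 without the block, and 4 were higher without siPool 2 bio rep 2. Among them were SELP, the platelet adhesion receptor P-selectin (0.59 ± 0.06), and GP5, a subunit of the receptor for von Willebrand factor (0.58 ± 0.07).

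The genes of arachidonic acid metabolism around PLA2G4A showed the same lean. Of 28 tested, 9 were called higher and 3 lower with siPool 1 (42.9%, median 0.24, against 14.6% of all genes). Without the block 4 and 0 were called, against 2.76% of all genes. PLA2G4A itself is counted among the higher calls in both. ALOX5AP, the partner of 5-lipoxygenase, stood at 21.3, 19.2 and 21.9 CPM with siPool 1, at 7.62, 12.2 and 13.2 CPM with siPool 2 and at 6.42, 7.94 and 9.13 CPM with the non-targeting pool (0.95 ± 0.14, edgeR adjusted p = 1.94e-05). HPGDS, which makes prostaglandin D and is also a mast cell gene, was higher (0.69 ± 0.11, adjusted p = 5.5e-05). Unlike PLA2G4A, both stood above the non-targeting pool with siPool 1, by 1.43 ± 0.14 and 1.00 ± 0.11.

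Lastly, genes that respond to foreign RNA were compared, since siRNAs are short double-stranded RNAs. Over all genes, 7.48% were called higher and 7.09% lower, or 1.68% and 1.08% without the block. Of 20 RNA sensing genes, 6 were called higher and 0 lower with siPool 1 (30%; median 0.21), and 1 was called higher and 0 lower without the block, with edgeR. MYD88, an adaptor of Toll-like receptors, stood at 63.5, 53.1 and 55.1 CPM with siPool 1, at 39.6, 40.2 and 37.3 CPM with siPool 2 and at 49.4, 42.1 and 40.1 CPM with the non-targeting pool (0.55 ± 0.08, adjusted p = 2.65e-05). Of 34 interferon response genes, 8 were called higher and 2 lower (29.4%; median 0.11), or 1 and 0 without the block, and IFNB1 was at 0 in every library. IFIT2, an interferon-induced protein that binds RNA, stood at 3.94, 5.97 and 4.06 CPM with siPool 1, at 1.72, 1.84 and 1.10 CPM with siPool 2 and at 2.18, 2.99 and 2.32 CPM with the non-targeting pool (1.56 ± 0.25, adjusted p = 7.3e-05). With 1 library left out, the higher calls ranged from 2 to 7 for RNA sensing, fewest without siPool 1 bio rep 3 or siPool 2 bio rep 2, and from 2 to 9 for interferon response, fewest without siPool 2 bio rep 2. Of 25 genes of the RNA interference machinery, 1 was called higher and 3 lower (16%, median -0.03). That share was near the 14.6% of all genes and below the 22.2% of those with a mean of at least 10 CPM. This held for the fit with the block only. Without the block 1 of the 25 was called higher and 2 lower, beside 1.68% and 1.08% of all genes. TNRC6B, an Argonaute partner in silencing (0.59 ± 0.08, adjusted p = 4.21e-06), and TSNAX, a subunit of the nuclease that clears the passenger strand (-0.56 ± 0.08, adjusted p = 2.72e-05), were the members with the smallest adjusted p.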

How the data were processed

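RNA of 9 HEL libraries was analysed. The authors deposited raw read counts per gene for 57820 genes, made with STAR and featureCounts on build hg19 after FastQC, per the submitters' processing notes. Versions, annotation and strand setting are not given in the sources used here, so antisense and overlapping genes cannot be told apart. Per the labels' protocols, RNA was extracted with Trizol and 1 provider made the HEL libraries.

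Counts were fitted with edgeR 4.0.16 (R 4.3.3; quasi-likelihood test, TMM factors, robust fit) in 1 model of 3 groups with the bio rep number as a block, over the 16688 genes that passed filterByExpr. Calls needed an adjusted p under 0.05 (Benjamini-Hochberg, over all genes tested), and every adjusted p given for a gene comes from edgeR. Errors of log2 differences are standard errors from the same fit, and intervals are 95%. CPM use TMM library sizes. The fit was tried on simulated counts with a random shift per gene in each of the 3 bio reps. This setting cannot show whether the block suits the real libraries. Alternatives were no block, 6 libraries, DESeq2 1.42.0, other size factors, other filters and leaving out libraries or bio reps. Same-numbered libraries deviated together clearly in bio rep 1 alone.

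The genes named are TAL1, 4 marker genes of the comparison, the 8 largest differences each way among called genes with a mean of at least 5 CPM and 1 sign in all bio reps, and at most 2 genes of each list, taken by adjusted p where called and otherwise by mean CPM. Others were chosen after their values were seen. These members and the 34 lists were chosen with earlier results of these data known. Of 856 list entries, 817 matched by symbol, 33 by gene ID and 6 not at all. The lists describe genes by counts and medians, with no set test. Well measured genes were called more often than all genes (28% at a mean of at least 100 CPM, against 14.6%). A share over 14.6% alone therefore does not set a list apart.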

Additional observations from a re-analysis of the deposited data

Results flagged for a closer look

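For 12 of the genes described, the pools were each called against the non-targeting pool in opposite directions, and the test of the difference between the pools was also passed (edgeR with the block). Over all genes, 38 of the 2431 called between the pools had this pattern. UHMK1, ESYT1, LIMA1, PLVAP and ACTB were chosen after their values were seen, so the count of 12 gives no rate. Without the block, 0 of the 12 kept both calls against the non-targeting pool: 4 kept that of siPool 1 (RRAGD, UHMK1, FCER1G and IKZF1), 2 that of siPool 2 (PLVAP and ESYT1) and 6 neither. PAPPA had a pool difference (siPool 1 minus siPool 2) of -1.35 on the log2 scale, with siPool 1 at -0.66 and siPool 2 at 0.69 against the non-targeting pool. RRAGD, a GTPase of amino acid sensing at the lysosome, differed by -1.06 (-0.66 with siPool 1 and 0.41 with siPool 2), UHMK1, a kinase that binds the splicing factor SF1, by -0.95 (-0.76 and 0.19), and JUND, a subunit of the transcription factor AP-1, by -0.63 (-0.25 and 0.38). PLVAP differed by 1.16 (0.35 and -0.81), LIMA1 by 1.13 (0.33 and -0.80), ESYT1, a tether of the endoplasmic reticulum to the plasma membrane, by 0.76 (0.25 and -0.52) and FCER1G by 0.73 (0.39 and -0.34). IKZF1 differed by 0.55 (0.33 and -0.22), HPGD, which inactivates prostaglandins, by 0.46 (0.25 and -0.21), ACTB by 0.41 (0.18 and -0.23) and HSP90B1, a chaperone of the endoplasmic reticulum, by 0.39 (0.18 and -0.20). HPGD and HSP90B1 were not called between the pools without the block (adjusted p = 0.24 and 0.81).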

How the results depend on the processing

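The counts of called genes depended most on the block. Without the replicate block, 461 genes were called between the pools, 704 for siPool 1 against the non-targeting pool and 176 for siPool 2 against it, compared with 2431, 2888 and 1694 with it. Leaving out a library or a bio rep gave 970 to 2514 calls between the pools, 1507 to 3118 for siPool 1 and 731 to 2192 for siPool 2 against the non-targeting pool, fewest without bio rep 2 in all 3. With the 6 libraries of the groups compared, DESeq2, other size factors or other filters, 2176 to 2562 genes were called between the pools. TAL1 kept its direction and was not called between the pools in any alternative (-0.11 to -0.04).

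Same-numbered libraries of different groups deviated from their group means with correlations of 0.317 to 0.363 over genes in bio rep 1 and 0.0869 to 0.159 in bio reps 2 and 3, against -0.264 to 0.207 for different numbers, and 3 of 9 libraries correlated best with their own number in both other groups. The numbers are thus not shown to pair the samples beyond bio rep 1. Of 117 called genes other than TAL1 examined in 19 alternatives, 0 changed direction, 61 kept their call in every alternative, 21 lost it without the block alone and 35 lost it in another alternative, RPLP0 in 14, AQP1 in 11 and IL8 in 10 of the 19. For 26.3% of the genes tested, called ones included, the 95% interval reached past 2-fold. Intervals and p-values rest on 3 libraries a group, and the groups within a bio rep were fitted as if the number marked a shared source.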

Other observations

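Of 27 genes of the integrated stress and unfolded protein responses, 5 were called higher and 7 lower with siPool 1 than with siPool 2 (44.4% called, against 14.6% of all genes; median -0.23). Without the block 0 were called in either direction by edgeR, beside 2.76% of all genes. With 1 library left out, the higher calls fell to 2 without siPool 1 bio rep 2 and to 3 without siPool 2 bio rep 3, and the lower calls numbered 11 without non-targeting bio rep 1. Among the higher ones was PDIA4, a protein disulfide isomerase, at 142, 78.2 and 72.7 CPM with siPool 1, 118, 52.96 and 53.2 CPM with siPool 2 and 106, 60.1 and 65.6 CPM with the non-targeting pool (0.42 ± 0.08). Among the lower ones was PHGDH, the first enzyme of serine synthesis, at 109, 223 and 285 CPM with siPool 1, 137, 331 and 368 CPM with siPool 2 and 94.3, 262 and 236 CPM with the non-targeting pool (-0.42 ± 0.07). In both genes the gap between bio rep 1 and the other bio reps was wider than that between the pools.

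A pair of p53 targets rose with siPool 2 against the non-targeting pool (CDKN1A by 0.78 ± 0.17 and BBC3 by 0.52 ± 0.14, edgeR adjusted p = 0.00332 and 0.0151, or 0.076 and 0.746 without the block). CDKN1A, the cell cycle inhibitor p21, was at 4.79, 4.06 and 4.82 CPM with siPool 1, 8.54, 9.62 and 9.07 CPM with siPool 2 and 4.10, 5.76 and 6.13 CPM with the non-targeting pool (pool difference -0.99 ± 0.18, edgeR adjusted p = 0.000239). BBC3, the apoptosis inducer PUMA, differed by -0.82 ± 0.14 but was not called without the block (adjusted p = 0.42). Of 22 p53 targets tested, 2 were called higher and 3 lower with siPool 1 (22.7%, median -0.11, against 14.6% of all genes). Without the block they had 1 and 1 (2.76% of all genes called). The lower calls numbered 7 without siPool 2 bio rep 1 and 6 without siPool 1 bio rep 1, and the higher calls 4 without either of these libraries and 1 without siPool 1 bio rep 3, siPool 2 bio rep 2 or siPool 2 bio rep 3. Of 32 ribosomal protein genes, 1 was called (3.12%), in the higher direction, and 31 intervals lay within 2-fold. RPLP0, the gene called, lost its call in 14 of 19 alternatives.

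The other lists are given by their calls higher and lower with siPool 1, beside 7.48% higher and 7.09% lower over all genes tested (1.68% and 1.08% without the block). These counts stayed within 1.5 times with 1 library left out: stem and progenitor genes had 6 and 1 of 16, lymphoid genes 3 and 0 of 11 and genes of the NF1 locus 1 and 1 of 7. Without the block they had 1 and 1, 1 and 0, and 1 and 0. The higher call of the NF1 locus list is EVI2B itself, with and without the block.

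The counts of the following lists moved by over 1.5 times with 1 library left out. Calls over all genes also fell, from 2431 to between 1307 and 1568, when bio rep 2 or bio rep 3 of 1 siPool was left out. Without the block 1.68% of all genes were called higher and 1.08% lower. Lysosome and autophagy genes had 8 and 3 of 32, with 2 higher without siPool 2 bio rep 2, 3 without siPool 1 bio rep 3, 4 without siPool 1 bio rep 2, 5 without siPool 2 bio rep 3 and 2 without the block. HIF targets had 4 and 1 of 25, with 2 higher without siPool 1 bio rep 2, 3 lower without siPool 1 bio rep 1 and 1 higher without the block. Immediate early genes had 3 and 4 of 27, with 6 higher without siPool 2 bio rep 1, 5 higher without siPool 1 bio rep 1, 1 lower without siPool 2 bio rep 3, 2 lower without siPool 1 bio rep 2, and 1 and 1 without the block. Heat shock genes had 3 and 2 of 18, with 1 higher without bio rep 2 of either pool, 0 lower without bio rep 3 of either pool and 1 lower without bio rep 1 or bio rep 2 of either pool, and 0 and 0 without the block (edgeR). MYC and ribosome biogenesis genes had 3 and 3 of 28, with 1 lower without siPool 2 bio rep 2, and 2 and 0 without the block. Mitochondrially encoded genes had 2 and 0 of 13, with 5 higher without siPool 1 bio rep 1, 4 without non-targeting bio rep 3, 1 without siPool 2 bio rep 2 and 0 without siPool 1 bio rep 2, siPool 1 bio rep 3 or siPool 2 bio rep 3, and 0 without the block (edgeR).

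The smallest counts, each 1 or 2, also depended on single libraries. Without the block 0 genes of these lists were called by edgeR, beside 2.76% of all genes. They were 1 and 2 of 19 NF-kB targets, 1 and 2 of 26 cholesterol synthesis genes, 1 and 2 of 22 apoptosis regulators, 1 and 1 of 28 respiratory chain genes, 0 and 1 of 7 replication-dependent histones and 1 and 1 of 8 stroma and epithelium genes (DCN and LUM at 0 in every library). With 1 library left out, their higher calls ranged from 0 to 2 and their lower calls from 0 to 3.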
